A study of Mus musculus with 2 samples.

Results

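Lymphoid tissue homing and egress genes were followed in cultured mouse Th17 cells. They are the 5 genes S1pr1, S1pr4, Cd69, Gpr183 and Ccr7, taken by gene name from a table of 22036 named genes. Each was found once, and each passed the filter of 1 CPM (counts per 1000000 counts of a library) on the mean of both libraries, as did 10597 genes in all. Th17 cells are CD4 helper T cells that make IL-17. The series holds 2 RNA sequencing libraries in a study of Foxo1 and TGFβ1 in Th17 fate, and the comparison asks which transcripts differ between its 2 kinds of Th17 culture. The first group, labelled pathogenic Th17 (pTh17), is 1 library of wild-type CD4 T cells given activin A at 20 ng/mL beside IL-6. The second, labelled non-pathogenic Th17 (npTh17), is 1 library of such cells given TGFβ1 at 2 ng/mL beside IL-6. IL-6 was at 20 ng/mL in both. The cells of both groups came from spleen and lymph node, were stimulated on plate-bound anti-CD3 (10 μg/mL) and anti-CD28 (5 μg/mL) with blocking antibodies to IFNγ and IL-4, and were lysed after 24 h. The sources used here do not give the age, sex, strain or number of the mice.

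T cells move between blood and lymphoid tissue under receptors that read chemical gradients. CCR7 and its ligands draw them into lymph nodes and the T cell zone, and GPR183 (EBI2) places activated lymphocytes within the tissue by sensing an oxidised cholesterol. Cells leave along a gradient of the lipid sphingosine 1-phosphate (S1P), which is high in blood and lymph, through the receptor S1PR1. CD69 is a lectin-like surface protein induced early in activation that binds S1PR1 and removes it from the surface, which holds activated cells in the tissue. Of the 5 genes, Gpr183 differed most between these libraries and was 3.99-fold higher in pTh17. The other 4 were between 1.10-fold and 1.46-fold lower in pTh17, the smallest of these differences within counting error. A ratio below 1 was found for 4 of the 5, and for 50.6% of all 10597 genes. The median log2 ratio of the set, which is the value of Cd69, was -0.16, against -0.0045 over all 10597 genes.

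For the members, upstream sequence was at hand in RefSeq (GRCm38.p6) for Gpr183 and S1pr4, and entries were missing for S1pr1, Cd69 and Ccr7. The 250 bases before each start are shown, one for the gene with the largest difference between the libraries and one for a gene whose difference was inside counting error. Capitals mark a match to any of the 7 motifs searched.
Gpr183 (chr14:121965194-121965443, minus strand): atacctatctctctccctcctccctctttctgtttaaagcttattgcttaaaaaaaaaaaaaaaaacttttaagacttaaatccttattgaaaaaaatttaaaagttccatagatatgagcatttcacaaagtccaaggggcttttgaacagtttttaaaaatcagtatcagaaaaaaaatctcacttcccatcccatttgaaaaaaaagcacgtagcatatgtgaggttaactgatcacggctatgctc
S1pr4 (chr10:81500138-81500387, minus strand): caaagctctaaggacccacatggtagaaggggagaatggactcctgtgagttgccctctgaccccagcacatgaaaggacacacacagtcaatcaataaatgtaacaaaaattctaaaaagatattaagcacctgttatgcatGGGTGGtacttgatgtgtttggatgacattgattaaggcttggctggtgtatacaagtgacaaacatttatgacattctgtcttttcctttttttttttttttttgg
The motifs were searched on both strands. They were TGTTTAC for FOXO factors, CCACCC for KLF factors, CAGACA for SMADs, TGANTCA for AP-1, TTCNNNGAA for STATs, AGGTCA for ROR factors and the E-box CACGTG. The Gpr183 window held none of them. The S1pr4 window held 1 match, to the KLF letters on the opposite strand, at bases -107 to -102 from the start, where it overlapped no other motif. Of 32851 mouse promoter windows of the same length, 28.1% held the KLF letters, 17.1% the SMAD letters, 14.0% the ROR letters, 7.02% the STAT letters, 6.75% the AP-1 letters, 6.02% the E-box and 3.17% the FOXO letters. G and C made up 32.0% of the Gpr183 window and 38.8% of the S1pr4 window. As little G and C as in the Gpr183 window, or less, was found in 2.60% of windows, and 10.3% had as little as that of S1pr4 or less.

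Depth was similar in the libraries, with 30877656 counts on genes that carry a name in pTh17 and 33470161 in npTh17. Of 10 T cell markers, the 7 found were measured in both, with a summed level of 2168 and 2189 CPM in the pTh17 and npTh17 library, and Cd4 stood at 223 and 230 CPM. The B cell marker Pax5 had no count in either library, and the 6 B cell markers together gave 29 counts in the pTh17 and 8 in the npTh17 library. The 6 dendritic cell markers gave 4 counts in pTh17 and 28 in npTh17, with Flt3, Siglech and Clec9a at 0 in both. The summed markers of CD8 T cells, macrophages, neutrophils, NK cells and red cells each lay between 0 and 4.58 CPM. With 1 library for each condition, no test between conditions was possible, differences rest on single libraries, and the ranges given are 95% intervals that cover counting error only. In bulk RNA, fewer cells that express a gene and less of its RNA in each cell cannot be told apart.

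Gpr183 encodes the receptor for 7α,25-dihydroxycholesterol. It had 995 counts in the pTh17 library and 269 in the npTh17 library, or 32.2 CPM in pTh17 and 8.05 CPM in npTh17. The pTh17 library was the high one by a wide margin, since the intervals of 30.2 to 34.2 CPM there and 7.12 to 9.07 CPM in the other lay far apart. The ratio was 3.99-fold (3.49 to 4.59), or 2.00 on the log2 scale (1.80 to 2.20). Among the 5 members, Gpr183 was the 1 gene past 2-fold toward pTh17 and none was past it toward npTh17, where 2.25% and 1.95% of the 10597 genes passed in these directions. It ranked at 39 among the 10597 genes from the highest ratio down, and of the 9265 genes whose mean was at least 5 CPM, 14 had a higher ratio. Per transcript length, Gpr183 stood at 10.8 FPKM in the pTh17 and 2.59 FPKM in the npTh17 library. FPKM is the deposited level relative to transcript length and depth. In rank among measured genes it was at 48.5% from the bottom in the pTh17 library, near the middle, and at 18.3% in the npTh17 library.

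The locus of Gpr183 (ENSMUSG00000051212, GENCODE M21 on GRCm38, chr14:121952551-121965195, minus strand) lies inside Ubac2, which is read from the other strand, and no exonic base of Gpr183 is shared with an exon of Ubac2. All gene positions given here are from that annotation. The libraries are not described as stranded, so reads from introns of Ubac2 could not be told from Gpr183 by strand. Ubac2 itself had 1444 counts in the pTh17 and 1765 in the npTh17 library, 1.13-fold higher in the npTh17 library (1.05 to 1.21). Whether reads from introns of Ubac2 entered the Gpr183 counts was not tested. GENCODE lists 2 transcripts of Gpr183, of 2724 and 361 bases, of which the longer has 2 exons and a coding length of 1071 bases. The deposited FPKM and counts imply a transcript length that is 0.958 times as long in the pTh17 as in the npTh17 library, while for the other 4 members that figure was between 0.999 and 1.00. Of 10050 genes with at least 50 counts in each library, 14.5% were at least as far from equal as Gpr183. The log2 ratio by FPKM was 2.06.

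B cells express Gpr183 strongly. The B cell list was also higher in the pTh17 library, at 0.938 CPM against 0.239 CPM in the npTh17 library, with the defining marker Pax5 at 0 in both, and the part of such cells in the Gpr183 difference was not tested.

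**Figure D1:**
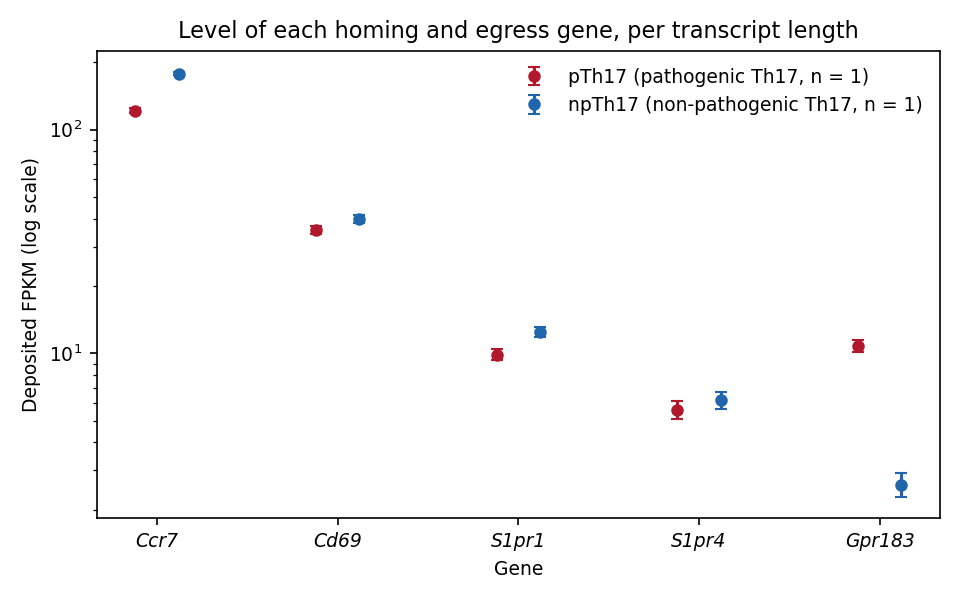
Deposited FPKM (log axis) of the 5 genes in the pTh17 library (red, left of each pair) and the npTh17 library (blue, right), with bars for the 95% Poisson counting interval. Ccr7 is the most abundant in both libraries at 122 FPKM in pTh17 and 178 FPKM in npTh17, and Gpr183 stands level with S1pr1 in the pTh17 library and below all the others in the npTh17 library.

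Genes of the enzymes around the GPR183 ligand had few or no counts, with 1 exception. CH25H and CYP7B1 make the ligand, and HSD3B7 breaks it down. Hsd3b7 had 128 counts in the pTh17 and 46 in the npTh17 library, or 1.98 FPKM in pTh17 and 0.689 FPKM in npTh17, and was 2.96-fold higher in the pTh17 library (2.13 to 4.31). Ch25h had 22 counts in pTh17 and 12 in npTh17, a difference within counting error. Cyp7b1 and Cyp27a1 had no count in either library, which allows up to 3 counts, or 0.097 CPM in pTh17 and 0.0898 CPM in npTh17. Of the 4 genes of this list, 1 was measured at 1 CPM or more, and it is the 1 past 2-fold. Over all 10597 measured genes, 2.25% passed 2-fold toward pTh17.

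Ccr7 encodes the receptor for CCL19 and CCL21, and was per length by far the most abundant of the set (ENSMUSG00000037944, chr11:99144196-99155077, minus strand, 3 exons). It had 8490 counts in the pTh17 and 13372 in the npTh17 library, or 274 CPM (269 to 280) in pTh17 and 400.1 CPM (393 to 407) in npTh17. The intervals did not overlap, and Ccr7 was 1.46-fold higher in the npTh17 library, with a log2 ratio of -0.54 (-0.58 to -0.50). In FPKM it stood at 122 and 178, at rank 474 and rank 289 of the 10597 genes in the pTh17 and the npTh17 library. Ccr7 alone made up 66.3% of the summed FPKM of the 5 members in the pTh17 library and 74.4% in the npTh17 library. At a lower bar of 1.5-fold, Gpr183 was still the 1 member that passed toward pTh17 and none passed toward npTh17, where 7.20% and 5.76% of all measured genes passed in these directions. With a trend on transcript length and GC content removed, the log2 ratio of Ccr7 was -0.63, past 1.5-fold toward npTh17, in place of -0.54. The CCR7 ligand genes Ccl19, Ccl21a and Ccl21b had no count in either library, and Ccl21c was not found by name. The scavenger receptor gene Ackr4 and the receptor gene Ccrl2 also had no count in either.

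S1pr1 encodes the main egress receptor of T cells (ENSMUSG00000045092, chr3:115710433-115715072, minus strand, 2 exons). It had 1062 counts in the pTh17 and 1447 in the npTh17 library, or 34.3 CPM (32.3 to 36.5) in pTh17 and 43.3 CPM (41.1 to 45.6) in npTh17. The npTh17 library was the higher one, by 1.26-fold (1.16 to 1.37), and the intervals did not overlap. That log2 ratio of -0.33 was at the 14.6 percentile of all measured genes. In FPKM, S1pr1 stood at 9.88 in the pTh17 and 12.5 in the npTh17 library. S1pr1 is also high in blood vessel endothelium. The 5 endothelial and stromal markers summed to 12.3 CPM in pTh17 and 15.5 CPM in npTh17, with Cdh5, Kdr and Col1a1 at 0 in both and the level carried by Pecam1 and Pdpn, and their part in the result was not tested.

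S1pr4 encodes an S1P receptor found mainly on lymphocytes and other blood cells (ENSMUSG00000044199, chr10:81497747-81500132, minus strand, 1 exon). It had 471 counts in the pTh17 and 559 in the npTh17 library, or 15.2 CPM in pTh17 and 16.7 CPM in npTh17. Its intervals of 13.9 to 16.7 CPM in the pTh17 and 15.4 to 18.2 CPM in the npTh17 library overlapped. The log2 ratio was -0.13 (-0.32 to 0.044), so a difference was not detectable at this depth. The interval leaves room for up to 1.24-fold higher in the npTh17 library.

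Of the other S1P receptor genes, S1pr2 encodes a receptor that holds back migration in several lymphocyte types. It had 236 counts in the pTh17 and 171 in the npTh17 library, or 1.13 FPKM in pTh17 and 0.701 FPKM in npTh17, and was 1.49-fold higher in the pTh17 library (1.22 to 1.83), opposite in direction to S1pr1. S1pr3 and S1pr5 were under the 1 CPM filter. S1pr3 had 5 counts in the pTh17 and 37 in the npTh17 library, 5.90-fold higher in the npTh17 library with a wide interval (2.69 to 22.3). S1pr5, a receptor known from NK cells, had 4 counts in pTh17 and 0 in npTh17, a difference within counting error. S1pr1 made up 59.2% of the summed FPKM of the 5 S1P receptor genes in the pTh17 library and 63.8% in the npTh17 library, and S1pr4 33.5% in pTh17 and 31.5% in npTh17.

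Cd69 encodes the early activation marker that opposes S1PR1 (ENSMUSG00000030156, chr6:129267325-129275436, minus strand). It had 2098 counts in the pTh17 and 2528 in the npTh17 library, or 67.8 CPM (65.0 to 70.8) in pTh17 and 75.6 CPM (72.7 to 78.7) in npTh17. The npTh17 library was slightly higher, by 1.12-fold (1.05 to 1.18), and the intervals lay close without overlapping. Once the trend on length and GC was removed, the log2 ratio of Cd69 was -0.043 in place of -0.16, so the size of this small difference depends on that choice. In FPKM, Cd69 stood at 35.7 and 39.9 in the pTh17 and npTh17 library, second to Ccr7 in both.

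**Figure D2:**
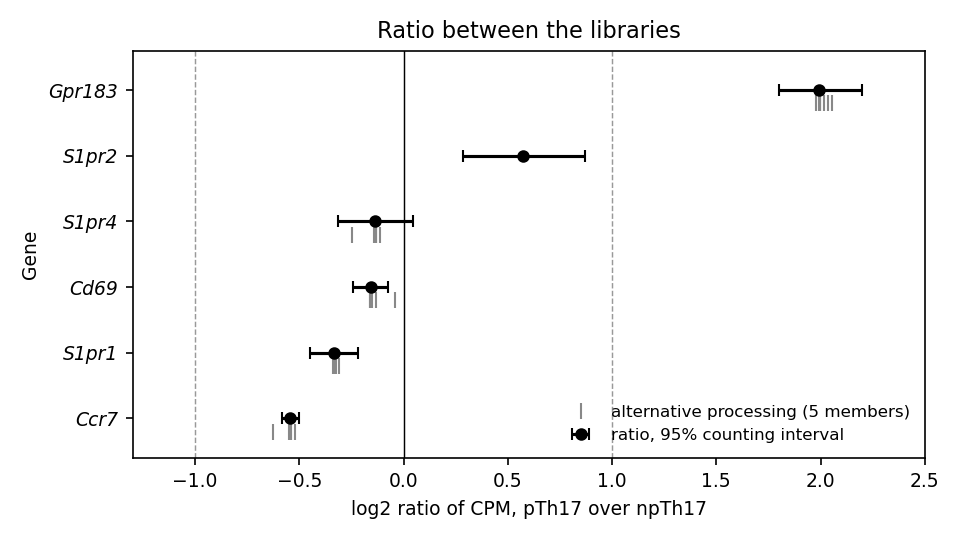
log2 ratio of CPM, pTh17 over npTh17, for the 5 genes and S1pr2 (points, with 95% counting intervals), with grey ticks for the alternative ways of processing the 5 genes and dashed lines at 2-fold. Gpr183 at 2.00 stands alone past 2-fold, and the ratios of S1pr4, Cd69, S1pr1 and Ccr7 run between -0.13 and -0.54.

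Taken per length, the order of the members was Ccr7, Cd69, Gpr183, S1pr1 and S1pr4 from high to low in the pTh17 library. The neighbours Gpr183 (10.1 to 11.5 FPKM) and S1pr1 (9.29 to 10.5 FPKM) overlapped within counting error, and the other neighbours did not. In the npTh17 library the order was Ccr7, Cd69, S1pr1, S1pr4 and Gpr183, with no overlap between neighbours. Gpr183 was the member whose place differed, level with S1pr1 in the pTh17 library and at the bottom of the set in the npTh17 library. Ratios between members within a library do not depend on how library size is scaled. Cd69 was 3.62 times S1pr1 by FPKM in the pTh17 library and 3.19 times in the npTh17 library. By counts, this Cd69 to S1pr1 ratio was 1.13 times as high in the pTh17 library (1.02 to 1.25). The lower bound lies close to 1, and the interval may be too narrow. The S1pr4 to S1pr1 ratio by counts was 1.15 times as high there (0.989 to 1.33), which includes no difference. The Ccr7 to S1pr1 ratio was 0.865 times as high (0.795 to 0.942). Gpr183 to Ccr7 was the widest pair, at 0.0886 by FPKM in the pTh17 and 0.0146 in the npTh17 library, and by counts was 5.83 times as high in the pTh17 library (5.07 to 6.71).

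**Figure D3:**
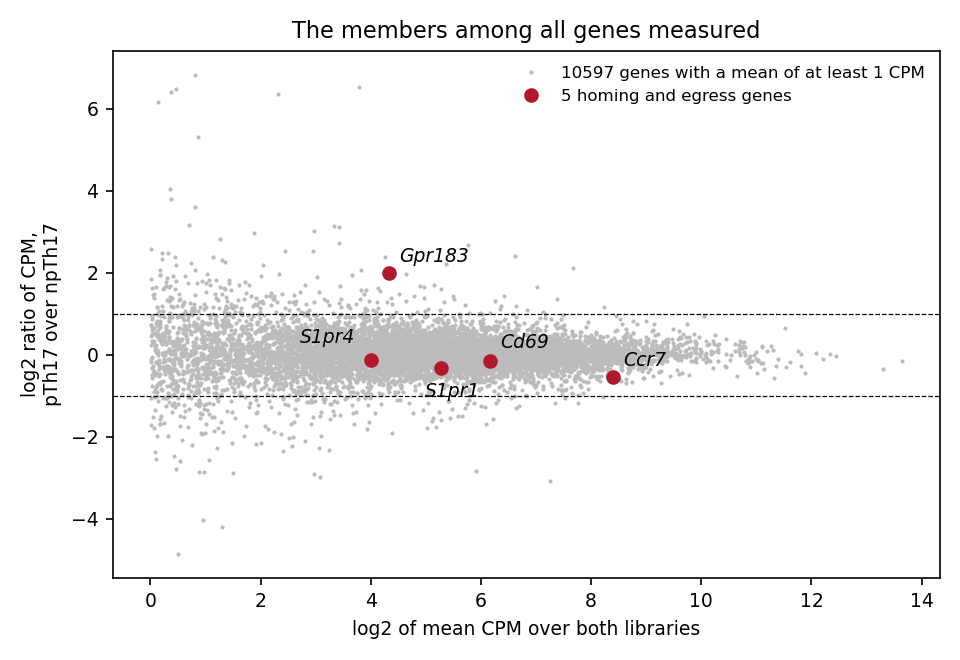
log2 ratio of CPM, pTh17 over npTh17, against log2 of the mean CPM over both libraries, for 10597 genes (grey) and the 5 homing and egress genes (red), with dashed lines at 2-fold. Gpr183 lies at the upper edge of the cloud, and the other 4 lie within it, Ccr7 toward its lower edge.

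The genes closest to each member over the 2 libraries were taken by distance in log2 CPM. With 2 libraries such closeness rests on 2 values per gene. For Gpr183 the nearest were Il1rn, the IL-1 receptor antagonist gene, at a distance of 0.288 and with 26.6 CPM in pTh17 and 8.56 CPM in npTh17, and Tnfrsf9, the 4-1BB gene, at a distance of 0.313 and with 27.0 CPM in pTh17 and 9.13 CPM in npTh17. Ccr7 was nearest to Arhgdib, a gene of small GTPase inhibition, and Med14, a Mediator subunit gene, at distances of 0.0470 and 0.0586. For S1pr1, Cwf19l2 and Lrpap1 were nearest, for S1pr4 Mmab and Rps6kc1, and for Cd69 Retreg3 and Rnf123, all within 0.0275.

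Genes of lymph node entry differed in both directions. Of 13 genes, all measured, 8 had a ratio below 1 and 5 above, where 50.6% of the 10597 genes had a ratio below 1. In this list 2 passed 2-fold toward npTh17 and none toward pTh17, against 1.95% and 2.25% of all measured genes. The list's median log2 ratio was -0.34, against -0.0045 over all 10597 genes. The 2 were the chemokine receptor genes Cxcr5, with 989 and 3465 counts in the pTh17 and npTh17 library, and Cxcr4, with 101 in pTh17 and 255 in npTh17. Itgal and Itgb2, the chains of the integrin LFA-1 that arrests cells on vessel walls, were both higher in the npTh17 library. Itgal was higher by 1.37-fold (1.34 to 1.39) and Itgb2 by 1.61-fold (1.57 to 1.66). By FPKM the log2 ratio of Itgal was -0.34 in place of -0.45, past its counting interval. Itgb1, another integrin chain, did not differ beyond counting error, at 38.9 FPKM in pTh17 and 39.4 FPKM in npTh17. The largest ratio toward pTh17 in the list, named after its value was seen, was that of Chst2, which encodes a sulfotransferase. It was 1.86-fold higher in the pTh17 library (1.78 to 1.94), with 5410 counts in pTh17 and 3151 in npTh17. Also named after their values were seen, St3gal4 and Itga4 were 1.41-fold and 1.39-fold higher in the pTh17 library.

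Among transcription factors known to control homing genes, 14 of 15 were measured. Of these, 2 passed 2-fold toward pTh17 and none toward npTh17, against 2.25% and 1.95% of all measured genes. There were 6 with a ratio above 1 and 8 below, and the median log2 ratio was -0.13. Prdm1, which encodes Blimp-1, was one of the 2 at 86 counts in the pTh17 and 41 in the npTh17 library, 2.24-fold higher in pTh17 (1.55 to 3.37). The other was the repressor gene Gfi1, with 2096 counts in pTh17 and 487 in npTh17. The other factor genes with the highest mean CPM were Bach2, Stat3 and Satb1. Bach2 and Stat3 were 1.23-fold and 1.26-fold higher in the npTh17 library, and Satb1 1.34-fold higher in the pTh17 library (1.30 to 1.37). By FPKM the log2 ratio of Satb1 was 0.64 in place of 0.42, past its counting interval. Foxo1 and Klf2, which encode factors known to maintain homing receptor genes in resting T cells, and their relatives Foxo3 and Klf3 were named after their values were seen, and members of both pairs differed in direction. Klf2 stood at 6.60 FPKM in the pTh17 and 12.5 in the npTh17 library, and Foxo1 at 21.5 FPKM in pTh17 and 30.6 FPKM in npTh17. Klf3 was 1.54-fold (1.31 to 1.82) and Foxo3 1.26-fold (1.18 to 1.36) higher in the pTh17 library.

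None of the measured genes of G protein signalling in migration passed 2-fold. The list mixes genes that carry the receptor signal to the cytoskeleton with receptor kinase, arrestin and RGS genes that damp it. Over all measured genes, 2.25% passed it toward pTh17 and 1.95% toward npTh17. Of 36 genes, 35 were measured, 24 with a ratio below 1 and 11 above, where 50.6% of all measured genes had a ratio below 1. The median log2 ratio was -0.11. Msn, which encodes the membrane linker moesin, was 1.41-fold higher in the npTh17 library (1.39 to 1.44), and Arhgef1, which encodes an exchange factor for small GTPases that acts below S1P receptors, 1.26-fold (1.23 to 1.29). Rap1b, a GTPase gene of integrin activation, had a log2 ratio of 0.040 (0.0093 to 0.071).

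S1P itself is made by sphingosine kinases and cleared by a lyase and phosphatases. Of 12 genes of this list, 5 were measured, 1 with a ratio above 1 and 4 below, where 50.6% of all measured genes had a ratio below 1. The median log2 ratio was -0.22. The gene above was the kinase gene Sphk2, named after its value was seen, at 1.14-fold higher in the pTh17 library (1.05 to 1.25). None of the 5 was past 2-fold, against 2.25% of all measured genes toward pTh17 and 1.95% toward npTh17. The phosphatase gene Sgpp1 was 1.10-fold (1.05 to 1.15), the lyase gene Sgpl1 1.22-fold (1.16 to 1.29) and Spns1, a lysosomal relative of the S1P exporter gene Spns2, 1.16-fold (1.08 to 1.26) higher in the npTh17 library.

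Other genes of early T cell activation differed in both directions. Of 17 measured, 13 had a ratio above 1 and 4 below, where 49.4% of all measured genes had a ratio above 1. Of the 13, Nr4a1 did not differ beyond counting error. In this list 1 gene passed 2-fold, toward pTh17, where 2.25% of all measured genes passed. That gene was Tnfrsf9, with 834 counts in the pTh17 and 305 in the npTh17 library. The median log2 ratio was 0.13. That of Cd69 was -0.16, and -0.043 with the trend on length and GC removed. The IL-2 receptor gene Il2ra, the most abundant of the list, was on the side of Cd69 at 1.11-fold higher in the npTh17 library (1.10 to 1.12), while Irf4, a factor gene induced by the antigen receptor, was higher in pTh17 at 1.10-fold (1.08 to 1.11). So was Tfrc, the transferrin receptor gene, at 1.12-fold (1.10 to 1.14).

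**Figure D4:**
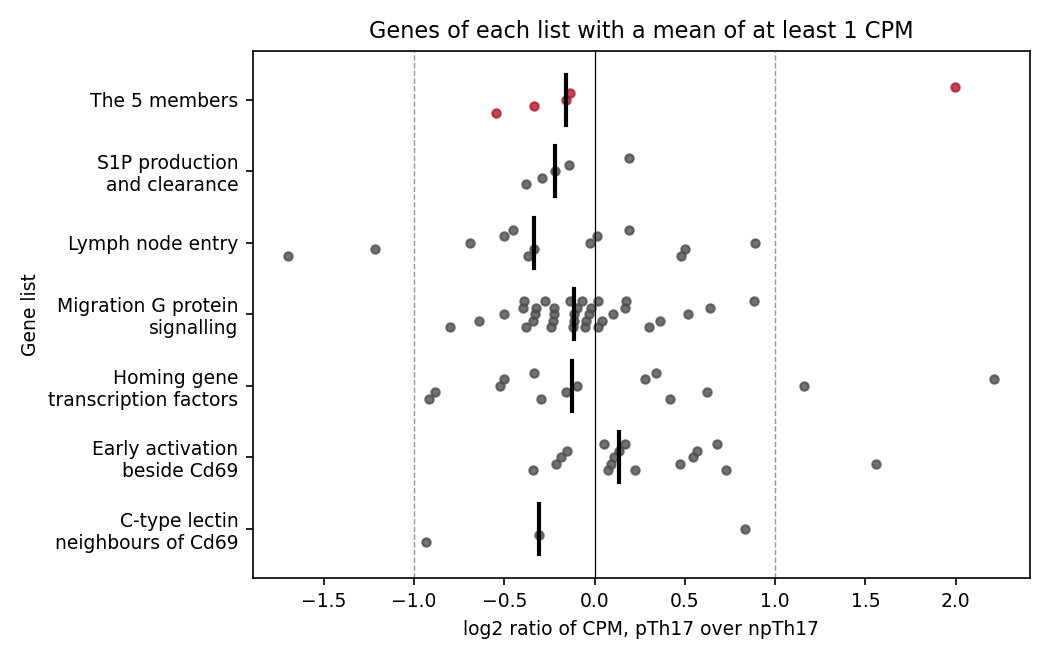
log2 ratio of CPM, pTh17 over npTh17, of each gene (points) with a mean of at least 1 CPM in 7 gene lists, with a black bar at each list's median and dashed lines at 2-fold. Lists with fewer than 3 such genes are not drawn. Of the medians drawn, that of the lymph node entry list is the lowest at -0.34, and that of the early activation list is the one above 0, at 0.13.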

How the data were processed

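Per the file headers, the authors deposited whole-number counts and FPKM values for each gene and library. The submitters' processing notes name build mm10; aligner, counter and annotation were not given in the sources used here. Poly(A) RNA was selected with oligo(dT), fragmented, randomly primed and PCR-amplified, per the labels' protocols, with no stated strand marking or molecular identifiers.

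Library sizes over named genes were scaled with TMM in edgeR 4.0.16 (R 4.3.3). They leave out 1646 features with no gene name, which held 2.50% of counts in the pTh17 and 2.90% in the npTh17 library. The ratio is log2 of CPM, pTh17 over npTh17, with a prior count of 1, with a 95% interval from the Clopper-Pearson bounds on the pTh17 share of counts. Intervals on levels are Poisson, and intervals on ratios between genes are exact conditional ones. Counts of 2 were 3.42 and 4.37 times as frequent as counts of 1 in the pTh17 and npTh17 library, so a fragment may have added more than 1 count and intervals may be too narrow. Positions and transcripts are from GENCODE M21, in which 22022 of 22036 identifiers were found. The calculations were tested on simulated Poisson counts, which cannot show whether intervals are too narrow for the deposited counts.

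The members and gene lists were chosen with earlier results of these data known. Beside the members and the other S1P receptor genes, the text names from each list the genes past 2-fold and up to 3 others with the highest mean CPM, and for each member the 2 nearest genes, leaving out predicted genes and pseudogenes. Genes named outside this rule, after their values were seen, are Foxo1, Foxo3, Klf2, Klf3, Chst2, St3gal4, Itga4, Nr4a1, Ch25h, Sphk2 and Ubac2. Genes at 0 and cell type markers were also named outside it. Some genes of these lists are not reported here by name, though they stay in the counts, sums and medians. Alternatives were other scalings (DESeq2 1.42.0 size factors among them), filters, prior counts, FPKM ratios, and removal of a length and GC trend by loess.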

Additional observations from a re-analysis of the deposited data

How the results depend on the processing

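The log2 ratios of the members kept their direction under each alternative that recomputed them, and Gpr183 ran from 1.98 to 2.06, past 2-fold throughout. The ranges were -0.34 to -0.31 for S1pr1, -0.25 to -0.11 for S1pr4, -0.16 to -0.043 for Cd69 and -0.63 to -0.52 for Ccr7. Removing the trend on the length and GC content of the longest transcript moved Cd69 to -0.043 and Ccr7 to -0.63, past their counting intervals, and the cause was not tested. Halving the counts left the ratios as they were and widened the intervals, to 1.72 to 2.29 for Gpr183 and -0.28 to -0.038 for Cd69. Genes at least 2-fold higher numbered 96 toward pTh17 and 101 toward npTh17 at a mean of 5 CPM, and 1192 toward pTh17 and 1136 toward npTh17 with no filter. At 1.5-fold they were 466 toward pTh17 and 384 toward npTh17 at a mean of 5 CPM, and 1914 toward pTh17 and 1738 toward npTh17 with no filter, since the filter sets how many low genes enter. No scaling alternative moved these counts by over 1.5 times. In the list of S1P production and clearance, 2 genes were past 2-fold with no filter, in opposite directions and both within counting error. By FPKM 1 signalling gene was past 2-fold, and at a mean of 5 CPM 1 transcription factor, both toward pTh17. The C-type lectin median of -0.31 became 0.84 at a mean of 5 CPM, where 1 gene was left, and 0.69 with no filter. No paired analysis was possible because each condition has 1 library, and no replicate could be left out. Depth limits S1pr3, S1pr5 and Ch25h, which had 5 and 37, 4 and 0, and 22 and 12 counts in the pTh17 and npTh17 library.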

Other observations

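Cd69 lies in a cluster of C-type lectin-like receptor genes, most of them known from NK cells. Of 9 neighbours in the list, 3 had a mean of at least 1 CPM, and Klrb1a, Klrb1b, Klrb1c and Clec2g had no count in either library. Clec2d, which encodes a ligand of an NK cell receptor, had 739 counts in the pTh17 and 447 in the npTh17 library and was 1.79-fold higher in the pTh17 library (1.59 to 2.01), a direction opposite to that of Cd69. Klrd1, which encodes CD94, went the other way, with 47 counts in pTh17 and 98 in npTh17, 1.91-fold higher in the npTh17 library (1.35 to 2.79). Clec2i had 32 counts in pTh17 and 43 in npTh17, within counting error. The 3 measured neighbours had a median log2 ratio of -0.31.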
